A study of Mus musculus with 6 samples.

Results

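Messenger RNA of 7 genes, the FOXO transcription factors Foxo1, Foxo3 and Foxo4 and the muscle ubiquitin ligases Fbxo32, Trim63, Fbxo30 and Fbxo21, was followed in cells given an siRNA against Circ-INSR. The 7 genes were taken by symbol from 38087 gene IDs, and all of them passed the filter on low counts, as did 16666 genes in all. They were chosen by name, by someone who knew how they differed between these same groups, so their levels and fold changes are given below as a description without a p-value. The cells were HL-1, a proliferating line of mouse atrial cardiomyocytes derived from an atrial tumour of a mouse that carried a viral oncogene. One group of 3 libraries received a scrambled control siRNA and the other group of 3 received 100 nM of siRNA against Circ-INSR, a circular RNA made from the insulin receptor gene Insr. The labels do not say that replicates came from separate cultures, and p-values therefore rest on a spread that may be technical. A lower value in such bulk RNA can mean fewer cells that express a gene or less RNA in each cell, which cannot be told apart.

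FOXO factors are forkhead transcription factors that insulin and growth factors hold in check. The receptor activates PI3-kinase and then AKT, AKT phosphorylates the FOXO protein, and the phosphorylated protein leaves the nucleus. When this signal is weak, FOXO proteins in heart and skeletal muscle switch on genes of protein breakdown, among them ubiquitin ligases that mark muscle proteins for the proteasome. Fbxo32, also called atrogin-1 or MAFbx, Fbxo30 (MUSA1) and Fbxo21 (SMART) encode F-box proteins, the substrate-binding subunits of SCF ligases. Trim63, also called MuRF1, encodes a RING-type ligase that binds sarcomere proteins. FOXO activity is set largely on the protein, so mRNA levels of the factors do not measure it.

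Gene counts summed to between 60024750 and 62523602 in control libraries and between 68468620 and 77037474 in Circ-INSR siRNA libraries, and 3 counts were worth between 0.0395 and 0.0496 CPM (the count of a gene relative to the TMM-adjusted size of its library). Each of the 7 genes had between 1223 and 8379 counts in a library. Control replicate 3 stood apart in long genes. The 1637 longest genes tested, with at least 9219 exonic bases, had a median log2 deviation of -0.13 there, against 0.03 and 0.04 in control replicates 1 and 2. Of 12 markers of atrial cardiomyocytes all were detected, with Myh6 at 1564 and Nkx2-5 at 147.4 CPM in control libraries, while Sln was at 0.908 and Nppa at 16.6 CPM. Of 12 skeletal muscle markers 8 were under 1 CPM in every library and Myf5 was at 0.

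The promoter sequences of Trim63 and Foxo1 are shown because they differ in what they hold, a FOXO word and a TATA box against neither. RefSeq promoter windows on GRCm38.p6 (the assembly of mm10), running from 250 bases before the transcription start to 50 after it, were matched by symbol for 5 of the 7 genes. Fbxo32 and Foxo4 had no entry. The 250 bases before each start are printed 5′ to 3′ on the gene's strand, from chr4:134314870-134315119 (plus strand) for Trim63 and chr3:52268087-52268336 (plus strand) for Foxo1. Capitals mark the FOXO core word GTAAACA or its complement TGTTTAC, the TATA word TATAAA, and the CCAAT word or its complement ATTGG.
Trim63: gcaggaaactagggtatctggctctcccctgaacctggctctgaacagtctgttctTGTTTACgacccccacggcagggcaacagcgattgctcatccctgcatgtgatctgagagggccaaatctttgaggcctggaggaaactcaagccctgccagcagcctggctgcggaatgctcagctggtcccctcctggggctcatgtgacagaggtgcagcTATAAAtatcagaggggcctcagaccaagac
Foxo1: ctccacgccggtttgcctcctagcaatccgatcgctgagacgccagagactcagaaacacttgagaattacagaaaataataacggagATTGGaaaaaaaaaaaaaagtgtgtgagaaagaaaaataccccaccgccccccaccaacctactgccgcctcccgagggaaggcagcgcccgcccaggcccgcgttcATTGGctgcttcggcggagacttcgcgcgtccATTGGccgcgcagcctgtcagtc

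Each word was searched on both strands of the whole 300-base window. The FOXO core was found in 1 of the 5 windows, that of Trim63, where it starts 194 bases before the transcription start on the opposite strand. With 1 more base it reads TTGTTTAC, the complement of GTAAACAA, a longer form of the same word that overlaps it. Of all 32851 windows 3.65% held the core and 1.23% the longer form, and of the 14508 windows of genes tested 2.53% and 0.827%. The TATA word lay 31 bases before the Trim63 start, and 13.6% of all windows and 7.45% of those of genes tested held one. The word CAAAACA of the insulin response element, present in 6.28% of all windows and 4.28% of those of genes tested, was in none of the 5. Foxo1 had the CCAAT word at 3 places on the opposite strand and Fbxo30 at 1, against 37.4% of all windows and 37.8% of those of genes tested with at least 1. The GC box word GGGCGG was in 4 of the 5, all except Trim63, in 35.7% of all windows and in 59.6% of those of genes tested. The Trim63 window held 7 CpG pairs, the median of all windows, while those of Fbxo21, Foxo1, Foxo3 and Fbxo30 held 27, 31, 35 and 47. A match is a description of the letters in these windows and shows no binding.

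In control cells the ligase mRNAs were the more abundant class per length. Levels of different genes were compared as CPM per kb of the union of their annotated exons. Trim63 had 46.4 ± 1.07 CPM per kb in control libraries (SD, n = 3 in this and every group below), and Fbxo21 followed with 11.3 ± 0.330. Fbxo32 had 8.84 ± 0.283, Fbxo30 8.25 ± 0.160 and Foxo4 7.86 ± 0.213 CPM per kb. The libraries of Fbxo30, from 8.07 to 8.38, and of Foxo4, from 7.71 to 8.11, overlapped, so these neighbours were not separated by their spread. Foxo3 had 5.95 ± 0.411 and Foxo1, the lowest, 4.66 ± 0.227 CPM per kb. Foxo4 was therefore the most abundant of the 3 FOXO mRNAs by this measure, with 42.6 ± 1.83% of their summed level, against 32.2 ± 1.81% for Foxo3 and 25.2 ± 1.03% for Foxo1. When the longest single transcript set the length, Foxo4 moved above Fbxo30 at 8.67 against 8.47 CPM per kb, and its libraries then overlapped those of both Fbxo30 and Fbxo32.

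After Circ-INSR siRNA Trim63 and Fbxo21 kept the first places and the lower order changed. Fbxo32 had 2.67 ± 0.0659 CPM per kb and was the least abundant of the 7, below Foxo1 at 5.21 ± 0.115. Trim63 had 37.4 ± 0.889 and Fbxo21 16.7 ± 0.504 CPM per kb, followed by Foxo4 at 10.4 ± 0.525. Fbxo30 had 8.14 ± 0.336 and Foxo3 6.48 ± 0.335 CPM per kb, and no 2 neighbours in this order overlapped. The summed level of the 4 ligases was 74.7 ± 0.968 CPM per kb in control and 65.0 ± 1.26 in Circ-INSR siRNA libraries. The sum of the 3 FOXO mRNAs was 18.5 ± 0.289 and 22.1 ± 0.491. Per length there were 5.25 ± 0.278 Trim63 transcripts for each Fbxo32 transcript in control libraries and 14.0 ± 0.570 after Circ-INSR siRNA. With the longest transcript as the length, an alternative chosen after seeing the data, these ratios were 7.91 ± 0.418 and 21.1 ± 0.859, as Trim63 then had 69.9 and 56.4 CPM per kb.

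**Figure D1:**
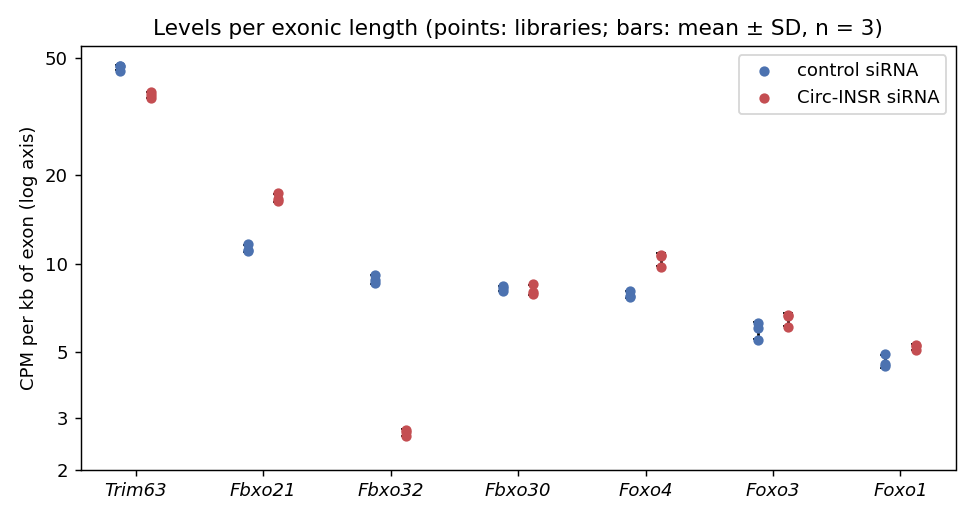
Level per exonic length (CPM per kb, log axis) of the 7 genes in control siRNA (blue) and Circ-INSR siRNA (red) libraries, ordered by the control mean, with a point for each library and bars for mean ± SD (n = 3). Trim63 is highest in both groups, and Fbxo32 moves from the third place at 8.84 to the last at 2.67.

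Between the groups, Fbxo32, Trim63, Fbxo21, Foxo4 and Foxo1 had separate libraries, while those of Foxo3 and Fbxo30 overlapped. In the edgeR fit over all genes 3 of the 7 genes passed the threshold (adjusted p under 0.05) with higher levels after Circ-INSR siRNA, namely Fbxo21, Foxo4 and Foxo1, and 2 with lower levels, Fbxo32 and Trim63. Of all 16666 genes tested 57.0% passed it, 28.5% higher (4750) and 28.5% lower (4745), and in 63.3% the control and treated libraries had separate ranges. As the 7 genes were picked with this contrast known, nothing is read from their count. The median log2 fold change of the 7 was 0.13, and that of all genes tested was -0.00454. Every log2 fold change below is Circ-INSR siRNA minus control from edgeR with its standard error (SE).

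**Figure D2:**
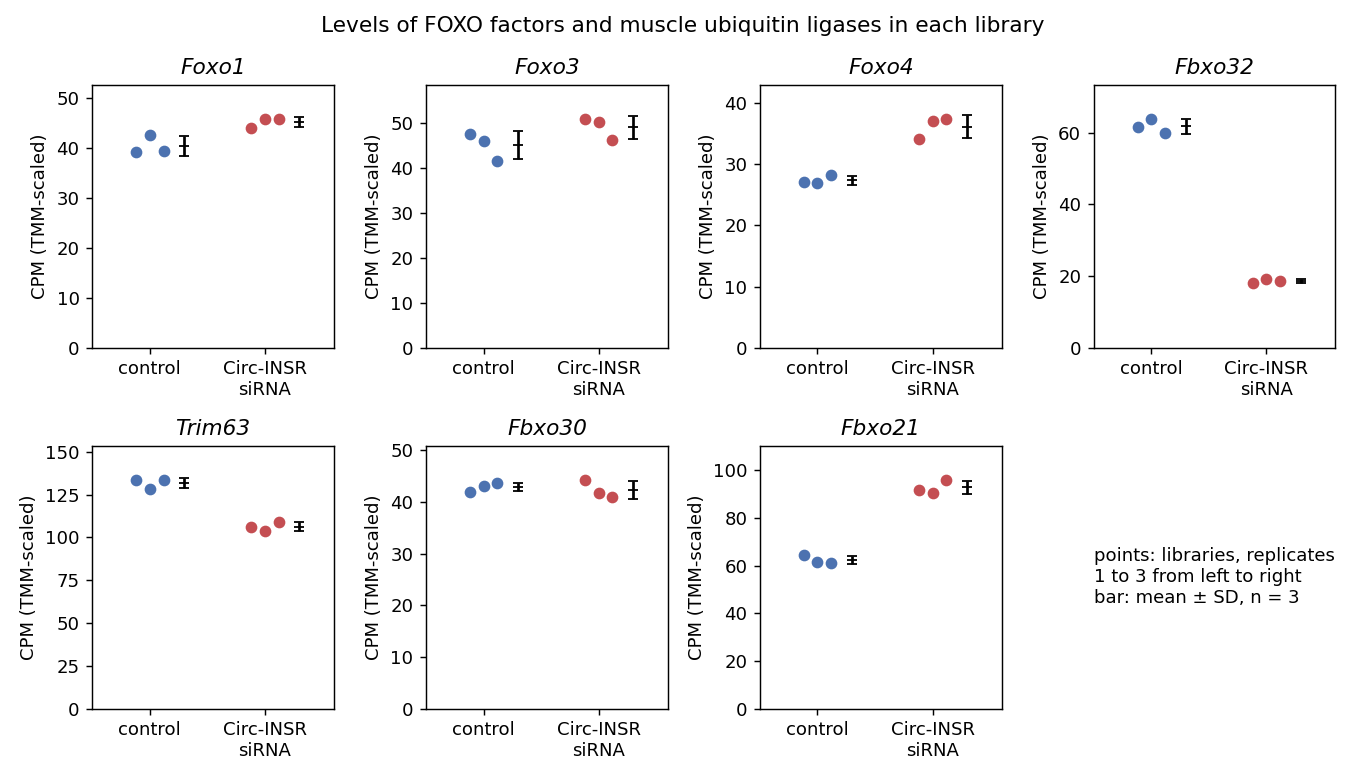
TMM-scaled CPM of each gene in each library (replicates 1 to 3 from left to right, control siRNA in blue, Circ-INSR siRNA in red), with bars for mean ± SD (n = 3) and axes that start at 0. Fbxo32 lies between 59.8 and 63.7 CPM in control and between 18.2 and 19.1 CPM in Circ-INSR siRNA libraries, and Foxo3 and Fbxo30 overlap between the groups.

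Foxo1, the FOXO factor best known for the control of glucose metabolism, lies on mm10 chromosome 3, 52268336 to 52353221, plus strand (ENSMUSG00000044167), with 3 exons and 8665 exonic bases. It had 39.1, 42.7 and 39.4 CPM in control replicates 1, 2 and 3, and 44.0, 45.7 and 45.7 CPM in Circ-INSR siRNA replicates 1, 2 and 3. All 3 treated libraries were above all controls, by a small margin. The log2 fold change was 0.16 (SE 0.05). Foxo1 did not pass the threshold when libraries were scaled by total counts (0.12), without Circ-INSR siRNA replicate 2 (0.15) or without Circ-INSR siRNA replicate 3 (0.15). The antisense gene Gm20402 shares 674 exonic bases with it and had at most 0.0743 CPM in any library.

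Foxo3, which drives autophagy and protein breakdown in muscle, lies on chromosome 10, 42181841 to 42276755, minus strand (ENSMUSG00000048756). It had 47.6, 45.9 and 41.6 CPM in control libraries and 50.9, 50.2 and 46.2 CPM after Circ-INSR siRNA. The lowest treated library was below control replicate 1, so the groups overlapped, and control replicate 3 was lowest of all. The log2 fold change was 0.13 (SE 0.06), below the threshold, and 0.075 without control replicate 3. It passed the threshold without control replicate 1 (0.17), with the replicate number as a block (0.13) and with each library's trend on length and GC content removed (0.20).

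Foxo4, the shortest of the 3 and carried on chromosome X, 101254528 to 101260873, plus strand (ENSMUSG00000042903), showed the largest change among the FOXO mRNAs. It had 27.1, 26.9 and 28.2 CPM in control libraries and 34.1, 37.1 and 37.4 CPM after Circ-INSR siRNA. The groups were separated by more than the range within either. Its log2 fold change was 0.40 (SE 0.05), a level of 132.0% of control. Its share of the summed FOXO mRNA was 47.0 ± 1.61% after Circ-INSR siRNA. Foxo6, the remaining family member and known mainly from brain, had 9.40 ± 0.457 CPM in control and 8.06 ± 0.536 CPM after Circ-INSR siRNA, a log2 fold change of -0.22 (SE 0.08; edgeR adjusted p = 0.0305). This call on Foxo6 was lost with DESeq2 (adjusted p = 0.0694) and without any single library except control replicate 3 or Circ-INSR siRNA replicate 3.

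Fbxo32 showed by far the largest difference of the 7. The gene lies on chromosome 15, 58175879 to 58214932, minus strand (ENSMUSG00000022358), with 9 exons and 6976 exonic bases. It had 61.6, 63.7 and 59.8 CPM in control libraries and 18.2, 19.1 and 18.7 CPM after Circ-INSR siRNA. Every treated library was far below every control, and the treated libraries differed little among themselves. The log2 fold change was -1.73 (SE 0.05), which left 30.2% of the control level. Of all genes tested 2.16% had a larger absolute log2 fold change. Over 16 alternative settings the value ran from -1.77 to -1.70. The antisense gene Gm15943, with 186 shared exonic bases, had at most 0.460 CPM in any library. Fbxo25, which encodes the closest relative of the Fbxo32 protein, was lower, with 47.9 ± 0.805 CPM in control and 39.9 ± 0.138 CPM in treated libraries (log2 -0.26, SE 0.04; edgeR adjusted p = 0.000251).

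Trim63 lies on chromosome 4, 134315120 to 134329629, plus strand (ENSMUSG00000028834), with 2842 exonic bases. It had 133.6, 128.2 and 133.4 CPM in control libraries and 106.2, 103.9 and 108.9 CPM after Circ-INSR siRNA, so the groups did not overlap. The log2 fold change was -0.31 (SE 0.04), a level of 80.7% of control, and it was -0.19 with the trend on length and GC content removed. Of its close relatives, Trim55 (MuRF2), which binds microtubules and titin in the sarcomere, went the other way. Trim55 had 19.7, 20.3 and 17.7 CPM in control and 34.5, 36.3 and 34.9 CPM in Circ-INSR siRNA libraries, a log2 fold change of 0.87 (SE 0.06; edgeR adjusted p = 2.41e-07). Trim54 (MuRF3) was near the limit of detection, at 0.183 ± 0.0206 and 0.201 ± 0.0266 CPM.

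Fbxo30, whose product is held low by BMP signals in skeletal muscle, lies on chromosome 10, 11281330 to 11298052, plus strand (ENSMUSG00000047648). It had 42.0, 43.1 and 43.6 CPM in control libraries and 44.2, 41.8 and 40.9 CPM after Circ-INSR siRNA. The highest and the lowest library were both treated ones. The log2 fold change was -0.02 (SE 0.05), and 96.2% of genes tested had a larger absolute one.

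Fbxo21 lies on chromosome 5, 117976730 to 118010201, plus strand (ENSMUSG00000032898), with 14 exons. It had 64.5, 61.5 and 61.2 CPM in control libraries and 91.9, 90.6 and 96.0 CPM after Circ-INSR siRNA. All treated libraries were far above the controls. The log2 fold change was 0.57 (SE 0.05), a level of 148.7% of control, opposite in sign to those of Fbxo32 and Trim63. Fbxo21 made up 15.1 ± 0.336% of the summed ligase level per length in control and 25.8 ± 0.356% in Circ-INSR siRNA libraries, while the share of Fbxo32 was 11.8 ± 0.502% and 4.11 ± 0.161%.

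**Figure D3:**
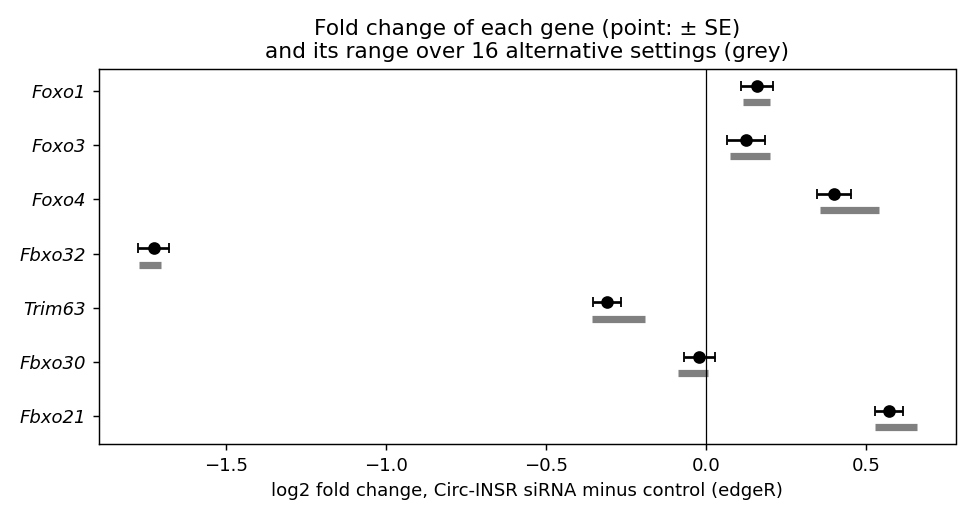
Log2 fold change (Circ-INSR siRNA minus control, edgeR) of the 7 genes, with points and bars for the estimate ± SE and grey lines for the range over 16 alternative settings. Fbxo32 stands at -1.73 and Fbxo21 at 0.57, and the range of Fbxo30, from -0.09 to 0.01, includes 0.

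The genes whose pattern over the 6 libraries was most like each of the 7 were found by the root mean square difference of log2 CPM after centring each gene on its own mean, among 10963 other genes. Every value shares the same libraries and depth, so likeness mostly reflects the difference between groups. For Fbxo32 the nearest was Trim72, which encodes the muscle ubiquitin ligase MG53 of membrane repair, at 0.0274, followed by the kinase gene Dapk2 at 0.0475 and the SNARE gene Vamp8 at 0.0551. Trim72 had 27.96, 29.5 and 26.9 CPM in control and 8.62, 8.59 and 8.67 CPM in Circ-INSR siRNA libraries, and its log2 fold change was -1.70 (SE 0.06; edgeR adjusted p = 2.75e-09). For Fbxo21 they were Egln2, a prolyl hydroxylase gene, at 0.0162, and Cdc20, a mitotic activator gene, at 0.0207. For Trim63 they were Shisa5, Tnfaip3 and Aifm1, at 0.0159 to 0.0186, and for Fbxo30 Chchd4, Snf8 and Mrpl46, at 0.0168 to 0.0191. For Foxo1 they were Ppp2r3a, Pde3b and Usp48, at 0.0156 to 0.0165. For Foxo3 they were Pom121, Nphp4 and Zfp516, at 0.0162 to 0.0231, and for Foxo4 Cnot2, Hnrnph3 and Egflam, at 0.0214 to 0.0263.

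Genes around the 7 were followed in 9 lists, from the insulin signal upstream to the targets and substrates downstream. Counts of genes past the edgeR threshold are to be read against the 28.5% of all genes that were higher and the 28.5% that were lower. Of the 219 distinct genes, 9 were in more than 1 list.

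Upstream of the FOXO factors the receptor and its adaptors went different ways. Of 25 tested genes of the insulin receptor, PI3-kinase and AKT chain 8 rose and 4 fell, with a median log2 fold change of 0.10. Irs1, the first adaptor of the receptor, had 21.3, 22.1 and 17.5 CPM in control and 40.3, 42.1 and 40.4 CPM in Circ-INSR siRNA libraries. Its log2 fold change was 1.01 (SE 0.08; edgeR adjusted p = 5.00e-07). Irs2, the other main adaptor and itself a FOXO target, had 34.2 ± 5.54 and 33.8 ± 1.12 CPM, a difference of -0.02 (SE 0.10), and it was -0.14 and past the threshold without control replicate 3 (edgeR adjusted p = 0.0200). Insr, the host gene of the circular RNA, had 129.0, 127.6 and 103.8 CPM in control and 89.2 CPM in each Circ-INSR siRNA library. Without control replicate 3 its log2 fold change was -0.52, against -0.43 with it. Poly(A) selection keeps mainly tailed, linear RNA, and gene counts hold no separate value for the circular RNA.

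Among the kinases that act on FOXO proteins, Akt1 rose by 0.24 (SE 0.04; edgeR adjusted p = 0.000457) from 306.8 ± 11.5 CPM. Akt2 had 166.8 ± 5.79 and 163.2 ± 3.50 CPM. Pdpk1, which encodes the kinase that activates AKT, fell from 161.9 ± 8.78 to 109.3 ± 4.63 CPM (-0.57, SE 0.05). Sgk3, from the kinase family next to AKT, rose by 0.80 (SE 0.08), whereas Sgk1 had 11.4 ± 1.14 and 10.8 ± 0.190 CPM. Pik3r2, a regulatory subunit of PI3-kinase, rose by 0.45 (SE 0.05), and the stress kinase gene Mapk9 changed by -0.48 (SE 0.05). The edgeR adjusted p of Pdpk1, Sgk3, Pik3r2 and Mapk9 ranged from 2.62e-06 to 8.17e-06.

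Of 24 tested genes for enzymes and partners that modify, bind or export FOXO proteins 14 rose and 4 fell, with a median of 0.24. Skp2, the F-box gene of the ligase that degrades FOXO1, rose from 56.9 ± 1.76 to 125.3 ± 2.26 CPM, and Cited2 from 22.1 ± 1.57 to 36.2 ± 1.38 CPM. Foxm1, a forkhead factor of dividing cells, rose by 0.54 (SE 0.06). Mdm2, whose product ubiquitinates p53 and FOXO proteins, fell from 372.3 ± 5.50 to 158.9 ± 3.92 CPM, and Kat2b, an acetyltransferase gene, from 163.2 ± 3.69 to 108.3 ± 2.71 CPM. The edgeR adjusted p of those 5 genes ranged from 2.24e-09 to 9.73e-06. The phosphoserine-binding adaptor gene Ywhaq changed by -0.15 (SE 0.05; edgeR adjusted p = 0.0186), a call that was lost without control replicate 2, Circ-INSR siRNA replicate 1 or Circ-INSR siRNA replicate 2. Without the last of these libraries 2 partner genes fell. Of the other genes of this adaptor family, Ywhab was also lower (-0.14, SE 0.04). Ywhaz (0.38, SE 0.04), Ywhae (0.27, SE 0.04) and Ywhah (0.27, SE 0.05) were higher, and Ywhag and Sfn did not pass the threshold.

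Target genes of FOXO factors reported in other tissues went both ways, with more of them lower. Of 44 tested 10 rose and 20 fell, and the median was -0.04. Without control replicate 3 the counts were 13 and 21. The list was not split by whether FOXO factors raise or lower a target. Several of these genes, such as Cdkn1a, Gadd45a, Sesn2 and Bbc3, are also known targets of p53. The largest falls were those of Bcl6, a transcriptional repressor gene, from 14.6 ± 0.927 to 3.73 ± 0.915 CPM, Selenop, which encodes a selenium carrier, from 474.4 ± 40.3 to 164.0 ± 3.93 CPM, and Gadd45a, a growth arrest gene, from 38.0 ± 3.42 to 16.5 ± 1.57 CPM. The largest rises were those of Kdr, the VEGF receptor gene, from 24.2 ± 1.45 to 71.7 ± 2.49 CPM, Tek, the angiopoietin receptor gene, from 4.11 ± 0.596 to 11.2 ± 0.371 CPM, and Ctsl, the lysosomal protease cathepsin L, from 88.6 ± 3.72 to 139.6 ± 2.92 CPM. The edgeR adjusted p of those 6 genes ranged from 2.74e-09 to 1.93e-06. Kdr and Tek are also endothelial markers, whose summed level over 7 genes was 27.3 to 30.7 CPM in control and 82.8 to 86.7 CPM in Circ-INSR siRNA libraries. Of the other 5 endothelial markers, Emcn was at 0 in every library and Cdh5 had 0.0212 CPM on average in control and 0.0192 CPM in treated libraries. Vwf had 0.0807 and 0.0609 CPM, Tie1 0.135 and 0.263 CPM and Pecam1 0.730 and 0.983 CPM. Tie1 and Pecam1 did not pass the edgeR threshold (adjusted p = 0.107 and 0.205), although the ranges of Tie1 did not overlap.

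The targets were also sorted by what they do, a split made after their values were seen. Of 10 tested targets of autophagy, lysosome and mitophagy 1 rose, Ctsl, and 5 fell, Gabarapl1, Ulk1, Atg12, Becn1 and Map1lc3b. Gabarapl1, which encodes an autophagosome protein, fell from 66.3 ± 2.80 to 39.7 ± 0.965 CPM, and Ulk1, the initiating kinase of autophagy, from 114.97 ± 11.95 to 75.0 ± 1.47 CPM. Of 9 tested targets of the cell cycle, growth arrest and DNA damage 3 rose and 5 fell. The falls included Ccnd1, the cyclin D1 gene and no arrest gene, from 36.7 ± 2.62 to 18.1 ± 1.05 CPM. Cdkn1a, the p21 inhibitor, was at 776.5 ± 15.8 CPM in control and 343.9 ± 19.3 CPM after Circ-INSR siRNA, while Cdkn1b, the p27 inhibitor, rose from 101.8 ± 6.82 to 143.2 ± 4.04 CPM and Ccng2 from 16.4 ± 1.72 to 23.2 ± 1.02 CPM. Of 10 tested antioxidant and stress genes 1 rose, Sod2, and 5 fell, among them Cat, the catalase gene, from 49.7 ± 1.42 to 25.6 ± 1.89 CPM. Of 4 tested cell death genes 3 fell. Of 9 tested genes of insulin signalling and metabolism 3 rose, Klf15, Ppargc1a and Glul, and 2 fell, Insr and Pdk4. Pdk4, a kinase that turns off pyruvate dehydrogenase, fell from 89.7 ± 1.20 to 51.9 ± 1.35 CPM.

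Of the 50 targets 41 had a promoter window, and the FOXO core word was in 6 of these, those of Bbc3, Bcl2l11, Mxi1, Selenop, Sesn1 and Txnip. Of all windows 3.65% held the word, and of those of genes tested 2.53%. The list was made of reported FOXO targets, so nothing is read from this count. Of the 6 targets with the word, Bbc3, Selenop and Txnip were lower, Mxi1 was higher, and Bcl2l11 and Sesn1 did not pass the threshold.

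Other muscle ubiquitin ligases gave 11 higher and 6 lower of 29 tested, with a median of 0.06. Besides Trim55, the rises included Fbxl22, which encodes a cardiac F-box protein of the Z-disc, from 23.4 ± 1.43 to 65.1 ± 2.81 CPM (1.47, SE 0.06; edgeR adjusted p = 4.06e-09). Fbxo40, a muscle F-box gene whose product degrades IRS1, rose by 0.46 (SE 0.08; edgeR adjusted p = 0.000279). Besides Trim72, Smurf1, which encodes a ligase for SMAD proteins, fell from 96.7 ± 8.56 to 74.6 ± 1.58 CPM and Fbxo31 from 50.01 ± 1.31 to 41.4 ± 1.09 CPM, with edgeR adjusted p of 0.000236 and 0.000300. F-box genes of muscle thus stood at both ends, with Fbxo32 at -1.73 and Fbxl22 at 1.47.

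The SCF core, which F-box proteins need to act, had 8 genes higher and 3 lower of 17 tested. Skp2 was the largest rise, followed by Cand2, a muscle exchange factor of cullins, at 0.77 (SE 0.06) and Btrc, another F-box gene, at 0.58 (SE 0.05). The falls were small, with Cops5 at -0.22 (SE 0.05), Nedd8 at -0.18 (SE 0.04) and Cops6 at -0.12 (SE 0.04), and edgeR adjusted p from 0.00220 to 0.0257. Nedd8 lost its call with the trend on length and GC content removed, and so did Cops6, also without filtering and without each of 4 libraries in turn. Of 20 ubiquitin, E1 and E2 genes 7 rose and 5 fell. The E2 genes Ube2d3 and Ube2h rose by 0.58 (SE 0.07) and 0.32 (SE 0.04). Ube2v1, which encodes an E2 variant, changed by -0.33 (SE 0.07). The edgeR adjusted p of those 3 genes ranged from 2.43e-05 to 0.00130. Ube2b, a partner E2 of muscle wasting, rose by 0.29 (SE 0.09; edgeR adjusted p = 0.0219), a call lost with total-count scaling, with no filter, and without control replicate 2 or Circ-INSR siRNA replicate 3.

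Of 19 tested genes for ligase substrates and their chaperones in muscle 10 rose and 3 fell, with a median of 0.19. Myl4, the atrial light chain gene, rose from 297.9 ± 14.8 to 540.5 ± 18.5 CPM, Myh6, the alpha myosin heavy chain gene, from 1564 ± 131.4 to 2205 ± 41.3 CPM, and Ckm, the muscle creatine kinase gene, from 5.95 ± 0.453 to 10.9 ± 0.119 CPM. Myl2, the ventricular light chain gene, fell from 9.39 ± 0.622 to 3.14 ± 0.197 CPM, Cryab, a small heat shock protein gene, from 311.4, 305.6 and 325.1 CPM in the control libraries to 220.6 ± 4.67 CPM, and Des, the desmin gene, from 566.6 ± 24.2 to 414.8 ± 16.6 CPM. The edgeR adjusted p of those 6 genes ranged from 4.56e-08 to 9.54e-06. The lower count was 5 without control replicate 3. Myh6 and Myl4 are also among the 12 atrial cardiomyocyte markers, of which 4 were higher and 5 lower, with a median log2 fold change of -0.05. The summed level of these 12 was 6782 to 7085 CPM in control and 7442 to 7573 CPM after Circ-INSR siRNA. The summed level of 12 skeletal muscle markers was 13.3 to 14.5 CPM in control and 20.9 to 21.3 CPM after Circ-INSR siRNA, most of it from Ckm, Tnnt3, Actn3 and Mylpf. Smooth muscle markers moved further in CPM, with a sum over 5 genes of 4055 to 4171 in control and 6491 to 6726 after Circ-INSR siRNA, 4 higher and none lower, most of it Acta2. The sum over 8 fibroblast markers was 175.5 to 193.1 and 135.4 to 153.6 CPM, with Tcf21 at 0. Of the 5 tested, however, 2 were higher and 1 lower, with a median log2 fold change of 0.64. The sum over 6 leukocyte markers was 6.58 to 7.60 and 3.91 to 4.28 CPM, with Adgre1 at 0. The part of these markers in the changes of any list was not tested.

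Other signals known to act on atrophy ligases were examined beside the insulin chain. Of 14 genes of the glucocorticoid receptor and its targets 2 rose and 6 fell, with Ddit4 (-0.85, SE 0.05), Cebpd (-0.74, SE 0.07) and Mt2 (-0.72, SE 0.06) lowest and Zbtb16 (0.44, SE 0.12) and Klf15 (0.40, SE 0.07) higher. Their edgeR adjusted p lay between 1.48e-07 and 0.00848. The 6 that did not pass the threshold were Fkbp5, Tsc22d3, Per1, Sgk1, Dusp1 and Pik3r1. Of 23 tested genes of the myostatin, activin and BMP chain 10 rose and 6 fell. Bmp4, a BMP ligand gene, rose from 4.20 ± 0.469 to 11.1 ± 0.764 CPM, Inhba, the activin A subunit gene, from 53.8 ± 1.57 to 88.3 ± 4.33 CPM, and Acvr2b, the myostatin receptor gene, from 2.98 ± 0.274 to 5.49 ± 0.268 CPM. Acvr1b, a type I activin receptor gene, fell from 60.4 ± 2.96 to 28.5 ± 1.18 CPM, Fstl3, which encodes an inhibitor of activin and myostatin, from 9.46 ± 0.193 to 3.65 ± 0.302 CPM, and Id2, a BMP response gene, from 38.4 ± 1.41 to 28.6 ± 1.27 CPM. The edgeR adjusted p of those 6 genes ranged from 1.96e-08 to 3.08e-05.

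**Figure D4:**
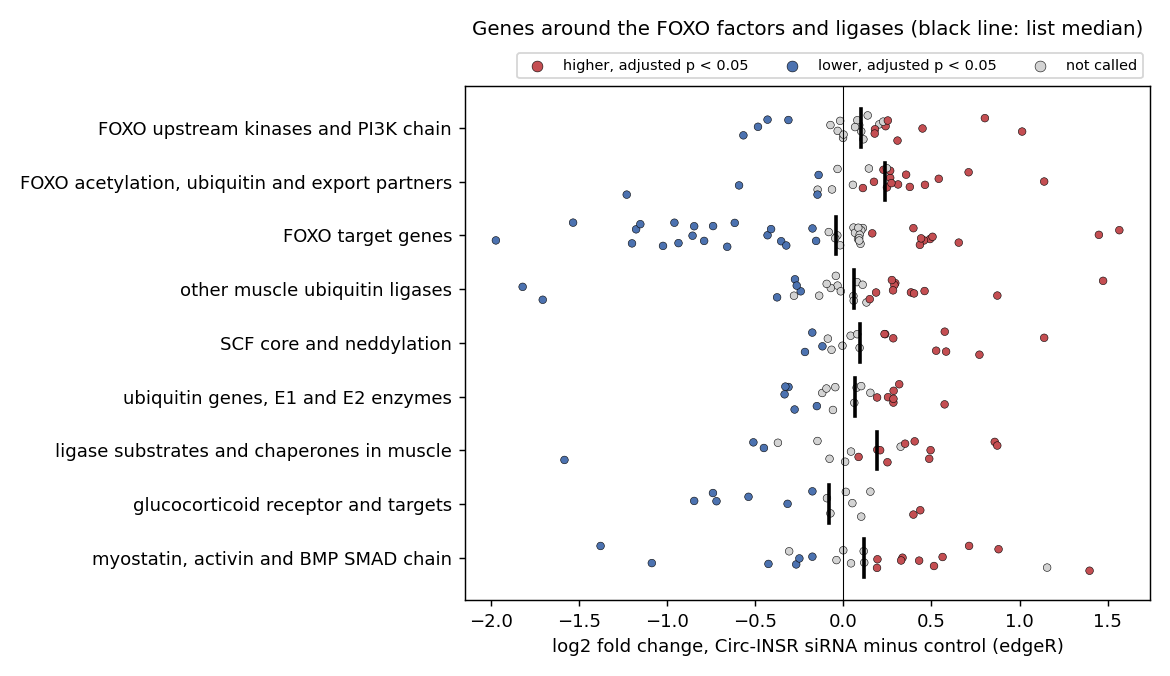
Log2 fold change (Circ-INSR siRNA minus control, edgeR) of each tested gene in 9 lists around the FOXO factors and ligases, coloured red or blue where adjusted p was under 0.05 and grey otherwise, with the list median as a black line. FOXO targets have 20 genes lower and 10 higher of 44, and medians run from -0.08 for glucocorticoid genes to 0.24 for FOXO partners.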

How the data were processed

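The authors deposited whole-number read counts by Ensembl gene ID, with no normalization, for 6 libraries. Per the labels' protocols, poly(A) RNA was selected and directional libraries were made, and the submitters' processing notes name mm10, STAR 2.5.0c and featureCounts 1.6.4 among other tools. Neither the strand option of the counting nor its treatment of multi-mapped reads is known (not given in the sources used here), and antisense overlaps are uncertain. Small even counts outnumbered odd ones in each file, as when both mates of a pair are counted, so a run with halved counts was among the alternatives. Symbols and exon models came from GENCODE M21, which named 36308 of the 38087 IDs (95.3%).

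Groups came from the sample titles. Genes were kept by filterByExpr (minimum count 10, minimum total 15), scaled by TMM (factors 0.983 to 1.03) and fitted with the edgeR 4.0.16 robust quasi-likelihood test in R 4.3.3, with group as the only term and Benjamini-Hochberg adjustment over 16666 genes at 0.05. The steps were also run on simulated counts in which far fewer genes differed than were called here. That run therefore does not cover a contrast as wide as this one. The SE was taken as the log2 estimate over √F. Promoter words and figures used Python 3.11.15, pandas 2.3.3 and matplotlib 3.10.9. Alternatives were other scalings and filters, DESeq2 1.42.0, limma-voom (limma 3.58.1), a replicate block, each library left out, halved counts, the longest transcript as length, and removal of a length and GC trend.

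The 7 genes, the lists and the alternatives were chosen with earlier results of these data known. Named genes are the 7, a fixed set of relatives and insulin signalling genes, the 3 largest rises and falls past the threshold in each list with a mean log2 CPM of at least 1, and the 3 genes most like each of the 7. Targets sorted by function and the relatives of Ywhaq were named after their values were seen. Of 25 listed FOXO partners 24 were found by symbol, and Prmt1 was not analysed here. Some genes that the rule names are not reported here.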

Additional observations from a re-analysis of the deposited data

How the results depend on the processing

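Calls over all genes ran from 4130 to 5610 higher and from 4148 to 5326 lower over 16 alternatives. Fbxo32, Trim63, Foxo4 and Fbxo21 kept their direction and their side of the threshold in all 16. Foxo1 was 0.12 with total-count scaling, where it no longer passed, and 0.14 to 0.20 with single libraries left out. Foxo3 passed the threshold at 0.13 with the replicate block and at 0.20 with the length and GC trend removed, and lay between 0.075 and 0.17 with single libraries left out. Fbxo30 lay between -0.051 and 0.0066 there. The cause of these shifts was not tested.

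With the length and GC trend removed, 8 ubiquitin, E1 and E2 genes were lower and 4 glucocorticoid genes higher, while Akt2 and Irs2 turned to 0.065 and 0.094. Of the ligase substrates 5 were lower with upper-quartile scaling, total-count scaling, the 1 CPM filter and the trend removed, and between 3 and 5 with single libraries left out, against 2 to 4 of the FOXO partners. Irs2 ranged from -0.14 to 0.055 there and Sgk1 from -0.13 to 0.016. Of 60 other named genes, the fixed set and the largest rises and falls of the lists, 52 kept direction and side in all alternatives. Genes named only for likeness, by function or as relatives of Ywhaq were not in this count.

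The labels do not say whether same-numbered libraries were paired. Their deviations from the group means correlated at 0.03, 0.07 and 0.03 over 16666 genes, and each library correlated best with its own number. Correlations this weak, from 3 libraries per group, cannot decide whether there was a pairing. The replicate block gave 4968 genes higher and 4900 lower. Apart from that of Foxo3, it changed no call among the 7 genes and the 60 other named genes.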
